A study of Mus musculus with 24 samples.

Results

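Arachidonic acid is freed from membrane phospholipids by phospholipases A2 and is then made into leukotrienes by a 5-lipoxygenase branch or into prostaglandins by a cyclooxygenase branch. Tuft cells of the small intestine and hematopoietic cells such as mast cells, eosinophils, macrophages and neutrophils are both known to make these lipids. Tuft cell leukotrienes are known to act on group 2 innate lymphoid cells (ILC2s) through the cysteinyl leukotriene receptor. The 9 genes described here were fixed by name and cover these steps. *Pla2g4a* and *Pla2g4c* encode cytosolic phospholipases A2. *Alox5*, *Alox5ap* and *Ltc4s* encode 5-lipoxygenase, the membrane protein that presents arachidonic acid to it, and leukotriene C4 synthase. *Cysltr1* encodes a receptor for cysteinyl leukotrienes. *Ptgs1* and *Ptgs2* encode the cyclooxygenases COX-1 and COX-2, and *Hpgds* encodes the hematopoietic prostaglandin D2 synthase. They are 9 of the 39056 genes counted, and all 9 passed the filter on low counts in each cell fraction.

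RNA was sequenced from live CD45+ (hematopoietic) and CD45− (epithelial, endothelial and stromal) single cells sorted from the ileum of C57BL/6J mice 9.0 to 10.3 weeks old, with 3 libraries in each of 8 groups. The 4 genotypes combine *Hoil1+/+* or *Hoil1−/−* with *Il4ra f/f* or *Il4ra ΔIEC*. *Hoil1−/−* is the Rbck1tm1Kiwa allele, which lacks full-length HOIL1, a subunit of the linear ubiquitin chain assembly complex, and can leave its N-terminal part at a low level. All mice carried the loxP-flanked *Il4ra* allele, which encodes the α chain of the IL-4 and IL-13 receptor, and villin-driven Cre deletes it in intestinal epithelial cells (IECs) of ΔIEC mice alone. Both sexes were used, Peyer's patches were removed, and the CD45− gate took part of the IECs together with lamina propria cells. The labels name no mouse, culture or litter, so p-values measure the spread between these libraries. In both ΔIEC genotypes the labelled ages are the same in the 2 fractions (9.6, 9.6 and 9.1 weeks for *Hoil1−/−* and 9.7, 9.7 and 9.0 weeks for *Hoil1+/+*), and in f/f mice they match in part, so CD45+ and CD45− libraries may share mice, and the tests between fractions treat them as independent. Libraries are numbered 1 to 3 within a group, and the numbers pair nothing.

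Counts on genes ranged from 6028275 to 68345191 in CD45− libraries and from 14938629 to 76807504 in CD45+ libraries. Levels are CPM, the counts-per-million scale that divides a count by the size of its library, with library sizes scaled by the TMM method over all 24 libraries, and a zero count in a library allows a level up to that of 3 counts. The study left out 3 libraries as outliers in its principal component analysis, and the tests here use the other 21. The 3 are CD45+ *Hoil1−/− Il4ra f/f* replicate 1, CD45+ *Hoil1−/− Il4ra ΔIEC* replicate 3 and CD45− *Hoil1−/− Il4ra f/f* replicate 3, and their levels are still given below. *Rbck1*, the gene that encodes HOIL1, was between 73.3 and 158 CPM in *Hoil1+/+* libraries and between 0 and 15.9 CPM in *Hoil1−/−* libraries. *Il4ra* in CD45− cells was between 56.1 and 157 CPM in f/f and between 45.3 and 129 CPM in ΔIEC libraries, so counts over the whole gene in this mix of cells do not check the ΔIEC labels. *Ptprc*, which encodes CD45, was between 252 and 755 CPM in CD45+ libraries and between 0 and 16.1 CPM in CD45− libraries. The lists of cell type markers followed the sort: 7 of 8 mast cell, 7 of 8 macrophage and all 5 neutrophil markers tested were higher in CD45+ cells, and all 6 epithelial markers were lower. Of 9 tuft cell markers tested, 5 were lower in CD45+ cells and 1, *Gfi1b*, which blood cells also express, was higher.

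Promoters are shown for 3 of the 4 genes with the largest *Hoil1* differences in CD45− cells (*Alox5ap* had no entry) and for *Hpgds*, which carried an octamer. The windows run from 250 bases before to 50 after a RefSeq start site (GRCm38.p6), and the table used held an entry for 7 of the 9 genes, with 2 starts each for *Pla2g4a* and *Pla2g4c*. Capitals mark the octamer ATGCAAAT, the site of POU domain factors such as POU2F3, which is needed to form tuft cells. The others hold no octamer, no STAT6-type site (TTC and GAA with 4 bases between them, used by IL-4 receptor signals) and no TATAAA on either strand.
Alox5, chr6:116461129-116461428, minus strand: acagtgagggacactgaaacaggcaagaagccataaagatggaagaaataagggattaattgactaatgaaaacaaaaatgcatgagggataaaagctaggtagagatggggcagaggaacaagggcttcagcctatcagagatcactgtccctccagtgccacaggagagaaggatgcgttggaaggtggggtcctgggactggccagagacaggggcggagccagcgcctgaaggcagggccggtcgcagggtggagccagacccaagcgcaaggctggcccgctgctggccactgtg
Ltc4s, chr11:50238483-50238782, minus strand: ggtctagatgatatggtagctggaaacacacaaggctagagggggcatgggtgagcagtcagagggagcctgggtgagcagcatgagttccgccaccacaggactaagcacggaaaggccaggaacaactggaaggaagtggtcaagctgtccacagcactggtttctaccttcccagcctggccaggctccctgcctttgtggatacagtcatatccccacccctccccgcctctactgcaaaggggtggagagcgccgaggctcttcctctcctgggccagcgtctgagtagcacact
Pla2g4c, chr7:13325417-13325716, plus strand: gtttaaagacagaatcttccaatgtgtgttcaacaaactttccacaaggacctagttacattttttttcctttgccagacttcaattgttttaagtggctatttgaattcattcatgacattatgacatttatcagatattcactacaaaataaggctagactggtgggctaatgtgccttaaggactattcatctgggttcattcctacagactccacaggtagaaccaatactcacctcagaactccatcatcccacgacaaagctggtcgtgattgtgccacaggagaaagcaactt
Pla2g4c, chr7:13329072-13329371, plus strand: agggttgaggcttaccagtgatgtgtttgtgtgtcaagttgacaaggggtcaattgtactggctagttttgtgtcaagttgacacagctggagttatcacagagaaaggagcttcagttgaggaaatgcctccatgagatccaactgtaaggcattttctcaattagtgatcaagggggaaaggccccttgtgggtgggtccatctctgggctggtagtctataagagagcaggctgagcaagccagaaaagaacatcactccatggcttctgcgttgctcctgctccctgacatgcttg
Hpgds, chr6:65144681-65144980, minus strand: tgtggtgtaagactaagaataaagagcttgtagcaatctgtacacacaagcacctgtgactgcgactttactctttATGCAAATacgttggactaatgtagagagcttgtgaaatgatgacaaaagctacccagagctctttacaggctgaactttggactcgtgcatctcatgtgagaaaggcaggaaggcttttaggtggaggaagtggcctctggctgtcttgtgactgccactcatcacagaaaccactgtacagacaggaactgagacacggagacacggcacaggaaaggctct

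The *Hpgds* octamer lies at offset -174 from its start site. Some of these RefSeq starts differ from the start of the gene in the GENCODE annotation. In genome coordinates the shift is -178 bases for *Hpgds* and -84 for *Ltc4s* (minus strand), and 1012 and 4667 bases for *Pla2g4c* (plus strand). These starts thus lie inside the annotated genes, and so does the octamer. Of 32851 mouse promoter windows of 300 bases, 1.74% hold the octamer, 6.95% hold the STAT6-type site and 13.6% hold TATAAA. The only other match among the 9 windows was a TATAAA, on the reverse strand, at offset -200 from the second start site of *Pla2g4a*. That start site is shifted by -38851 bases (minus strand) and also lies inside the annotated gene. A match is a description of letters and not of binding.

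The first comparison asks which fraction carried each RNA. Averaged over the 4 genotypes, 7 of the 9 genes were higher in CD45+ cells, 1 (*Pla2g4c*) was lower and 1 (*Cysltr1*) did not pass the test. The test was edgeR's quasi-likelihood test with Benjamini-Hochberg adjustment over all genes and a threshold of 0.05 on the adjusted p, and it called 49.6% of the 18778 genes tested. A call in this contrast is therefore common among all genes. In bulk RNA, fewer cells of a type and less RNA per cell cannot be told apart, here and in all comparisons that follow.

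**Figure D1:**
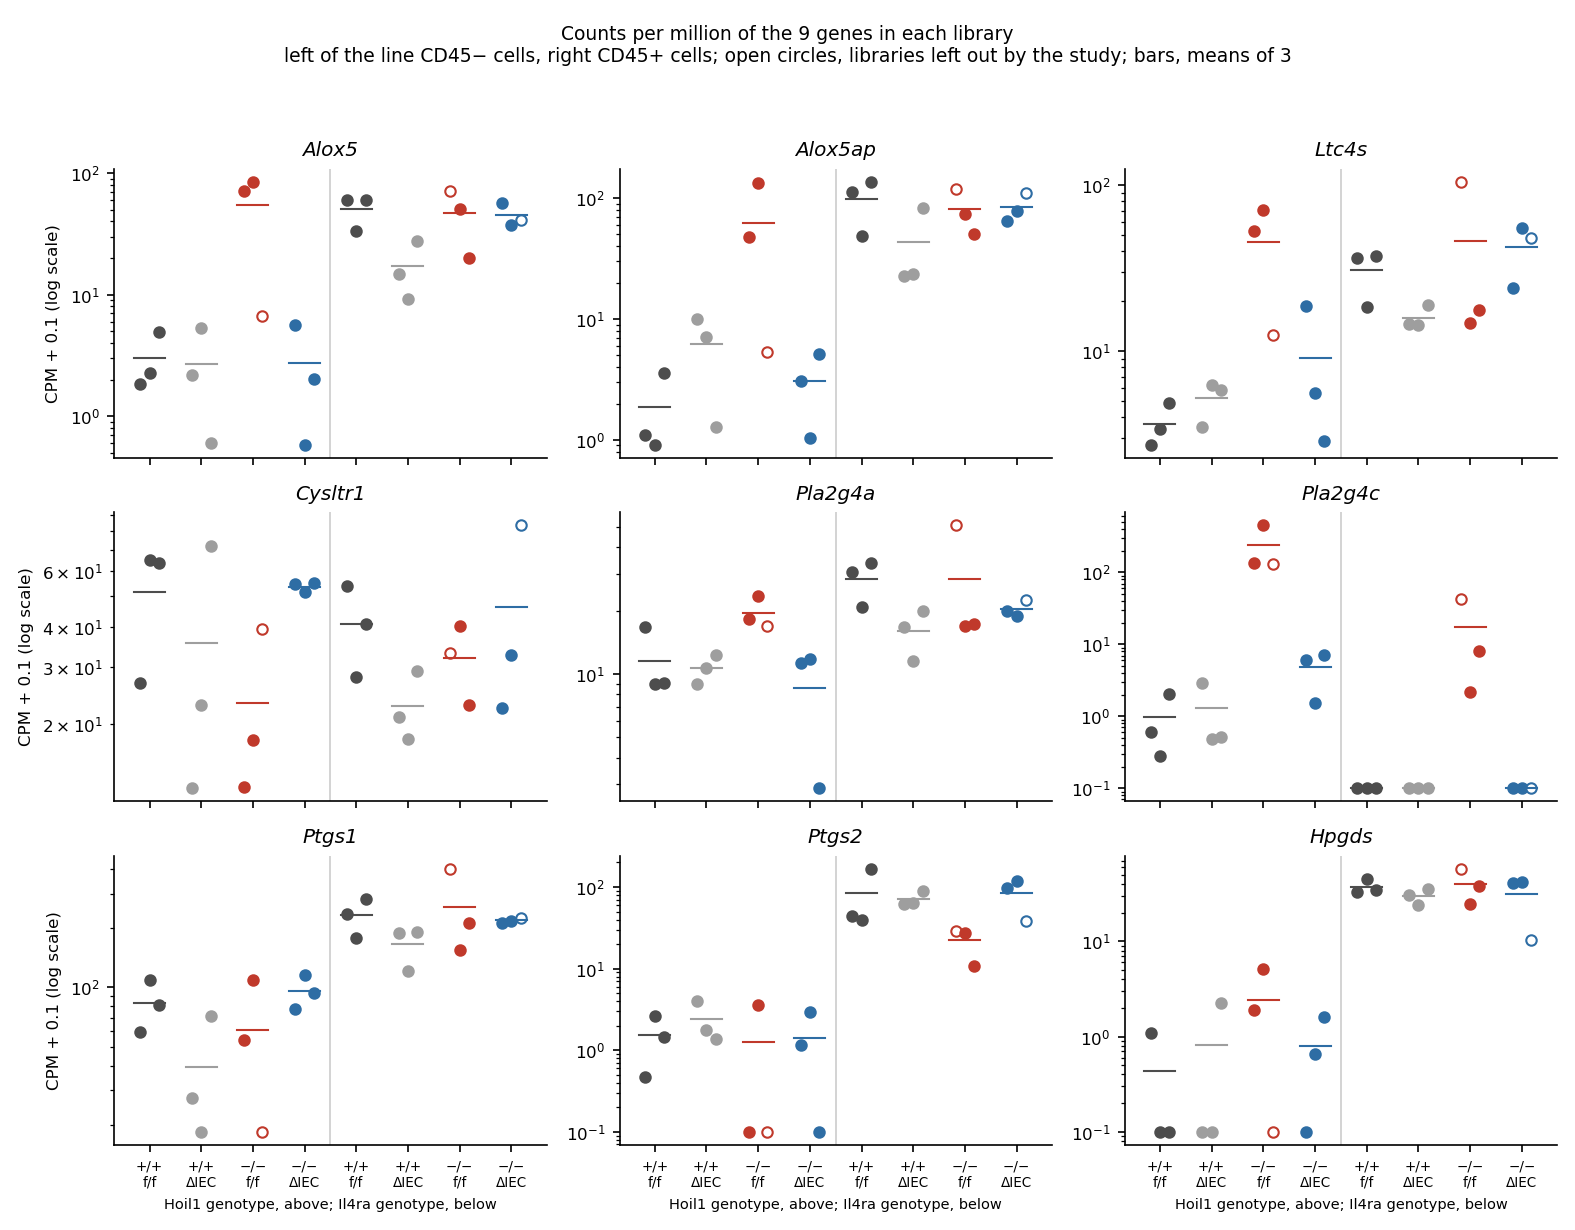
Level of each of the 9 genes in every library, as CPM plus 0.1 on a log axis, with CD45− groups left of the line and CD45+ groups right of it. Each circle is a library, open circles are the 3 libraries the study left out and bars are means of 3; *Ptgs2* and *Hpgds* are separated by fraction, while *Alox5*, *Alox5ap*, *Ltc4s* and *Pla2g4c* are high in CD45− cells of *Hoil1−/− Il4ra f/f* mice.

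*Hpgds* and *Ptgs2* had the largest differences among the 7 genes higher in CD45+ cells. *Hpgds* (ENSMUSG00000029919.5, chr6:65117293-65144908, minus strand, GRCm38) ranged from 0 to 5.08 CPM in CD45− libraries, with a median of 0.279 and no count in 6 of 12, and from 10.3 to 57.6 CPM in CD45+ libraries, with a median of 35.0. *Ptgs2* (ENSMUSG00000032487.8, chr1:150100031-150108227, plus strand) ranged from 0 to 3.96 CPM (median 1.32) in CD45− and from 10.8 to 167 CPM (median 53.3) in CD45+ libraries. The 2 fractions did not overlap for either gene. The log2 difference, CD45+ minus CD45−, was 5.45 ± 0.83 (SE, adjusted p = 3.86e-05 by edgeR) for *Hpgds* and 5.10 ± 0.64 (SE, adjusted p = 6.17e-06 by edgeR) for *Ptgs2*. *Ptgs1* (ENSMUSG00000047250.13, chr2:36230426-36252272, plus strand), which encodes the cyclooxygenase that most tissues make at rest, was present in both fractions, from 18.3 to 116 CPM (median 74.4) in CD45− and from 121 to 402 CPM (median 213) in CD45+ libraries. Its log2 difference was 1.48 ± 0.23 (SE, adjusted p = 5.63e-05 by edgeR), and the ranges did not overlap.

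The leukotriene synthesis genes were also higher in CD45+ cells averaged over the 4 genotypes, but with ranges that overlapped. *Alox5* (ENSMUSG00000025701.12, chr6:116410077-116461178, minus strand) had a median of 3.48 CPM in CD45− libraries (0.483 to 84.7) and of 39.1 CPM in CD45+ libraries (9.07 to 70.9). *Alox5ap* (ENSMUSG00000060063.9, chr5:149264767-149288153, plus strand) had a median of 4.23 CPM (0.814 to 133) against 75.7 CPM (22.5 to 136). *Ltc4s* (ENSMUSG00000020377.14, chr11:50236461-50238616, minus strand) had a median of 5.61 CPM (2.63 to 70.4) against 21.2 CPM (14.2 to 105). An exon of *Ltc4s* overlaps *Gm26542* on the opposite strand (1299 counts over all libraries, against 17437 for *Ltc4s*). The highest CD45− values of all 3 came from *Hoil1−/− Il4ra f/f* mice and reached the levels of CD45+ cells. In the tested libraries of that genotype, 2 per fraction, the mean was higher in CD45− cells. It was 77.8 against 35.0 CPM in CD45+ cells for *Alox5*, 90.4 against 62.1 CPM for *Alox5ap* and 61.6 against 16.1 CPM for *Ltc4s*. With the left-out libraries the means of 3 were 54.1 against 47.0, 62.1 against 81.0 and 45.2 against 45.7 CPM. The fractions were not tested within this genotype. Averaged over the 4 genotypes, the log2 differences of the 3 genes, CD45+ minus CD45−, were 2.47 ± 0.44 (SE, adjusted p = 1.73e-04 by edgeR), 3.18 ± 0.46 (SE, adjusted p = 2.32e-05) and 1.23 ± 0.29 (SE, adjusted p = 0.00207).

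The phospholipases and the receptor went different ways. *Pla2g4a* (ENSMUSG00000056220.14, chr1:149829618-149961290, minus strand), the calcium-dependent enzyme that is held to supply most arachidonic acid in activated cells, had a median of 11.4 CPM in CD45− (2.77 to 23.4) and 19.8 CPM in CD45+ libraries (11.4 to 50.8), a log2 difference of 0.69 ± 0.23 (SE, adjusted p = 0.0206 by edgeR). That call was lost without CD45− *Hoil1−/− Il4ra f/f* replicate 1 (log2 difference 0.65, adjusted p = 0.0563 by edgeR; over all alternatives the adjusted p ranged from 0.00358 to 0.0563). *Pla2g4c* (ENSMUSG00000033847.15, chr7:13324655-13360672, plus strand) encodes a phospholipase A2 that lacks the calcium-binding domain of the others. It had counts in all 12 CD45− libraries (0.181 to 453 CPM) and in 3 of the 12 CD45+ libraries, and no size is given for its fitted difference because 9 CD45+ libraries had no count. *Cysltr1* (ENSMUSG00000052821.3, chrX:106574346-106603679, minus strand) had a median of 45.3 CPM in CD45− (12.5 to 71.8) and 30.9 CPM in CD45+ libraries (17.7 to 83.3). Its log2 difference was -0.23 ± 0.28 (SE, adjusted p = 0.580 by edgeR), so a leukotriene receptor RNA was measured in both fractions.

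**Figure D2:**
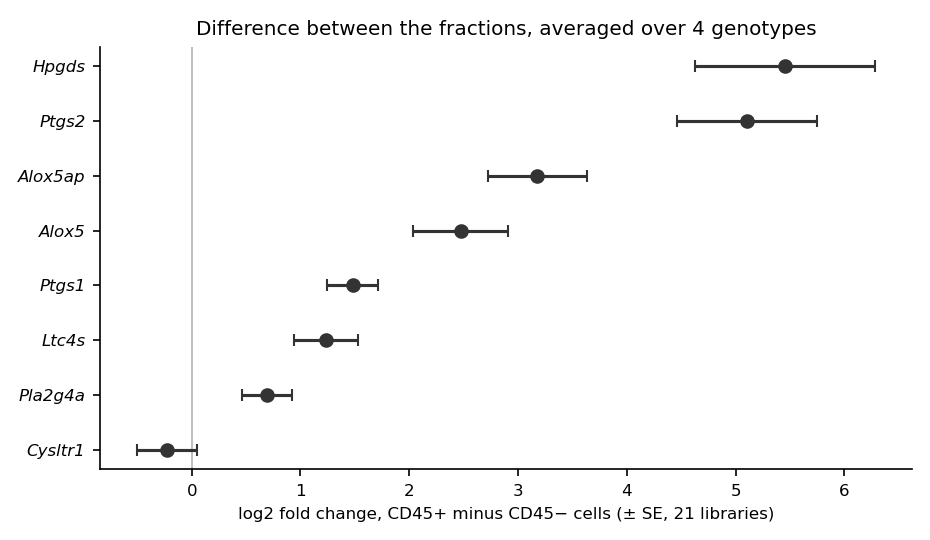
Fitted log2 difference between the fractions (CD45+ minus CD45−, averaged over 4 genotypes, 21 libraries) for 8 genes, with bars of 1 standard error. *Hpgds* (5.45) and *Ptgs2* (5.10) lie farthest from 0 and *Cysltr1* (-0.23) is within 1 standard error of it; *Pla2g4c* is not drawn, since 9 CD45+ libraries had no count.

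Levels of different genes can be set side by side per kilobase of annotated exon. By median CPM per kilobase in CD45+ cells the order was *Ptgs1* (54.8), *Alox5ap* (53.3), *Ltc4s* (20.96), *Ptgs2* (11.6), *Alox5* (9.51), *Cysltr1* (6.01), *Hpgds* (5.44), *Pla2g4a* (3.10) and *Pla2g4c* (0). Neighbours in this order down to *Pla2g4a* overlapped in their ranges over the 12 libraries, as *Ptgs1* (31.0 to 103) and *Alox5ap* (15.8 to 96.0) did. In CD45− cells the order was *Ptgs1* (19.2), *Cysltr1* (8.82), *Ltc4s* (5.53), *Alox5ap* (2.98), *Pla2g4a* (1.79), *Alox5* (0.848), *Pla2g4c* (0.630), *Ptgs2* (0.289) and *Hpgds* (0.0434), again with overlapping neighbours. By these medians over the 4 genotypes COX-1 RNA stood first in both fractions. *Cysltr1* stood second in CD45− cells and sixth in CD45+ cells. The order did not hold in every CD45− library. In *Hoil1−/− Il4ra f/f* replicate 2, *Pla2g4c* (121), *Alox5ap* (94.0) and *Ltc4s* (69.4) were above the highest *Ptgs1* value of any CD45− library (29.8).

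The second comparison asks whether HOIL1 loss changed these genes in CD45− cells that kept *Il4ra*. With edgeR's quasi-likelihood test none of the 9 genes passed (0.0365% of 16453 genes did), 5 of 9 had an unadjusted p under 0.05 (2161 of all genes did), and both the likelihood ratio test of edgeR and DESeq2 called 4, *Alox5*, *Alox5ap*, *Ltc4s* and *Pla2g4c*, among 350 and 652 genes. These 4 had the largest values of the 9 genes in *Hoil1−/− Il4ra f/f* mice relative to *Hoil1+/+ Il4ra f/f* mice. Only 2 *Hoil1−/− Il4ra f/f* libraries enter this test.

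*Pla2g4c* stood farthest apart. *Hoil1+/+ Il4ra f/f* libraries held 0.501, 0.181 and 1.95 CPM, and *Hoil1−/− Il4ra f/f* libraries held 134, 453 and 130 CPM, the last in the library the study left out. All 3 libraries of one group were above all 3 of the other. The log2 difference was 8.26 ± 1.23 (SE, adjusted p = 0.0540 by edgeR) over the 21 libraries, and the call turned with the setting: the adjusted p ranged from 1.09e-11 to 0.251 over the alternatives. Without CD45− *Hoil1−/− Il4ra f/f* replicate 2 it was 7.19 with an adjusted p of 0.0186 by edgeR, and without CD45− *Hoil1+/+ Il4ra ΔIEC* replicate 3 it was 8.25 with an adjusted p of 0.0446. Of the *Hoil1+/+* values, 2 rest on 4 counts each.

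The 3 leukotriene synthesis genes had the same order of groups. *Alox5* was at 1.75, 2.17 and 4.79 CPM in *Hoil1+/+ Il4ra f/f* and at 70.8, 84.7 and, in the left-out library, 6.63 CPM in *Hoil1−/− Il4ra f/f* mice. *Alox5ap* was at 1.00, 0.814 and 3.47 CPM against 47.4, 133 and 5.28 CPM in the same order. *Ltc4s* was at 2.63, 3.30 and 4.73 CPM against 52.8, 70.4 and 12.5 CPM. For each of the 3 genes the left-out library was above every *Hoil1+/+ Il4ra f/f* library but far below the other 2 of its group. The log2 differences were 4.72 ± 1.03 (SE, adjusted p = 0.153) for *Alox5*, 5.62 ± 1.04 (SE, adjusted p = 0.113) for *Alox5ap* and 4.11 ± 0.69 (SE, adjusted p = 0.0836) for *Ltc4s*, all by edgeR's quasi-likelihood test. *Ltc4s* passed without CD45− *Hoil1−/− Il4ra f/f* replicate 2 (adjusted p = 0.0339) and without CD45− *Hoil1−/− Il4ra ΔIEC* replicate 1 (adjusted p = 0.0377), within a range of 1.72e-06 to 0.317 over the alternatives.

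The other 5 genes were called by none of the 3 tests. *Pla2g4a* was at 16.6, 8.87 and 8.95 CPM in *Hoil1+/+ Il4ra f/f* and at 18.2, 23.4 and 16.8 CPM in *Hoil1−/− Il4ra f/f* mice, without overlap and with a log2 difference of 0.87 ± 0.56 (SE, adjusted p = 0.468 by edgeR). *Cysltr1* was at 26.7, 64.7 and 63.5 CPM against 12.5, 17.6 and 39.3 CPM, where the left-out library, the last, overlaps the *Hoil1+/+* range, with a log2 difference of -1.77 ± 0.65 (SE, adjusted p = 0.360 by edgeR). *Ptgs1* ranged from 59.1 to 110 CPM against 18.3 to 109 CPM, with its lowest value in the left-out library and a log2 difference of -0.03. *Ptgs2* stayed at or under 3.51 CPM in these 6 libraries. *Hpgds* was at 1.00, 0 and 0 CPM against 1.82, 5.08 and, in the left-out library, 0 CPM, a log2 difference of 3.44 ± 2.75 (SE, adjusted p = 0.547 by edgeR). No gene of either branch passed edgeR's quasi-likelihood test in this comparison.

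**Figure D3:**
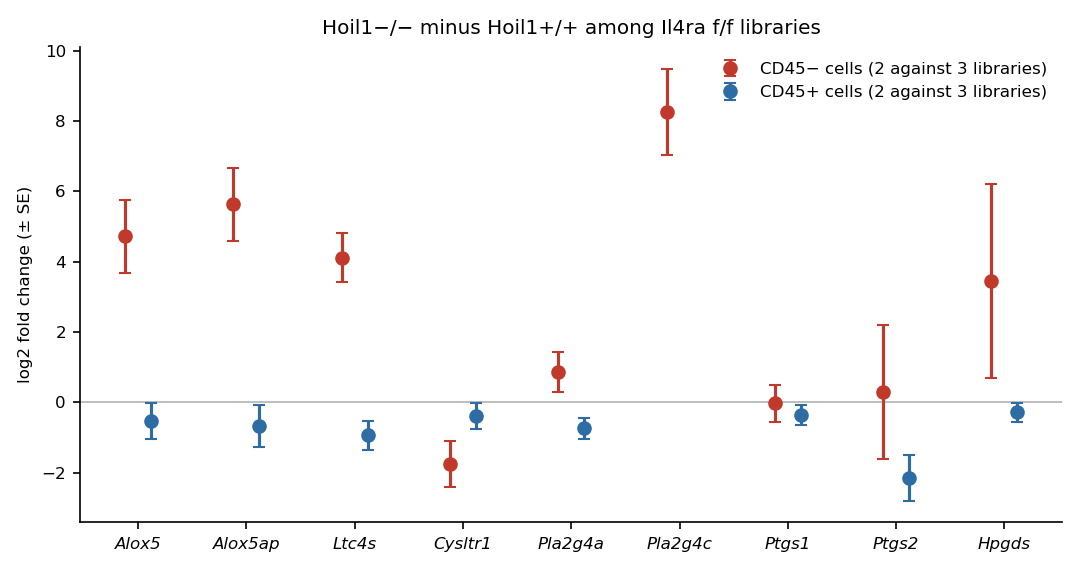
Fitted log2 difference between *Hoil1−/− Il4ra f/f* and *Hoil1+/+ Il4ra f/f* mice for each gene in CD45− and in CD45+ cells (2 against 3 libraries each), with bars of 1 standard error. *Pla2g4c* (8.26), *Alox5ap* (5.62), *Alox5* (4.72) and *Ltc4s* (4.11) lie above 0 in CD45− cells, while in CD45+ cells *Ltc4s* (-0.94) and *Ptgs2* (-2.15) lie below it; the CD45+ value of *Pla2g4c* is not drawn, since the *Hoil1+/+* libraries had no count.

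Tuft cell markers moved with these 4 genes, and their part in the result was not tested. The summed level of 10 tuft markers was 571 and 822 CPM in CD45− *Hoil1−/− Il4ra f/f* replicates 1 and 2, 44.2 CPM in the left-out replicate 3, and between 26.1 and 65.4 CPM in the other 9 CD45− libraries. Of 9 tuft markers tested, *Avil* and *Trpm5* passed the test in this comparison, both higher. *Pou2f3* was between 5.05 and 24.3 CPM in *Hoil1−/− Il4ra f/f* and between 0.362 and 5.42 CPM in *Hoil1+/+ Il4ra f/f* mice, and *Trpm5* between 2.58 and 226 against 6.11 to 12.4 CPM. Replicate 3 is thus the library in which *Pla2g4c* was high (130 CPM) beside a tuft marker sum like that of other groups.

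Hematopoietic markers and the mix of other cells also varied. *Ptprc* reached 10.2 and 16.1 CPM in replicates 1 and 2 of CD45− *Hoil1−/− Il4ra f/f* and at most 3.82 CPM in the other CD45− libraries. The summed level of 9 mast cell markers was at most 1.38 CPM in any CD45− library, with *Cpa3*, *Ms4a2* and *Fcer1a* at 0 in all 12. The summed level of 8 macrophage markers was between 42.2 and 94.0 CPM in *Hoil1−/− Il4ra f/f* and between 37.6 and 50.7 CPM in *Hoil1+/+ Il4ra f/f* libraries. Of the eosinophil list, *Siglecf* reached 70.2 CPM in *Hoil1−/− Il4ra f/f* libraries, and the study places this marker on tuft cells as well. *Ccr3*, *Il5ra* and *Epx* were at 0 in all CD45− libraries. The summed B and plasma cell markers were at 291, 877 and, in the left-out library, 99.6 CPM in *Hoil1−/− Il4ra f/f* mice. They were at 336, 16.2 and 48.4 CPM in *Hoil1+/+ Il4ra f/f* mice, and their part was not tested. The summed level of 6 epithelial markers was 13748, 12447 and, in the left-out library, 2465 CPM in *Hoil1−/− Il4ra f/f* mice, against 6371, 1309 and 2040 CPM for *Hoil1+/+ Il4ra f/f*. Epithelial marker RNA thus also moved with the 4 genes between the compared groups, and its part was not tested. In *Hoil1+/+ Il4ra ΔIEC* mice the sums were 13956, 11707 and 2245 CPM, beside *Alox5* levels of 2.08, 5.24 and 0.501 CPM.

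**Figure D4:**
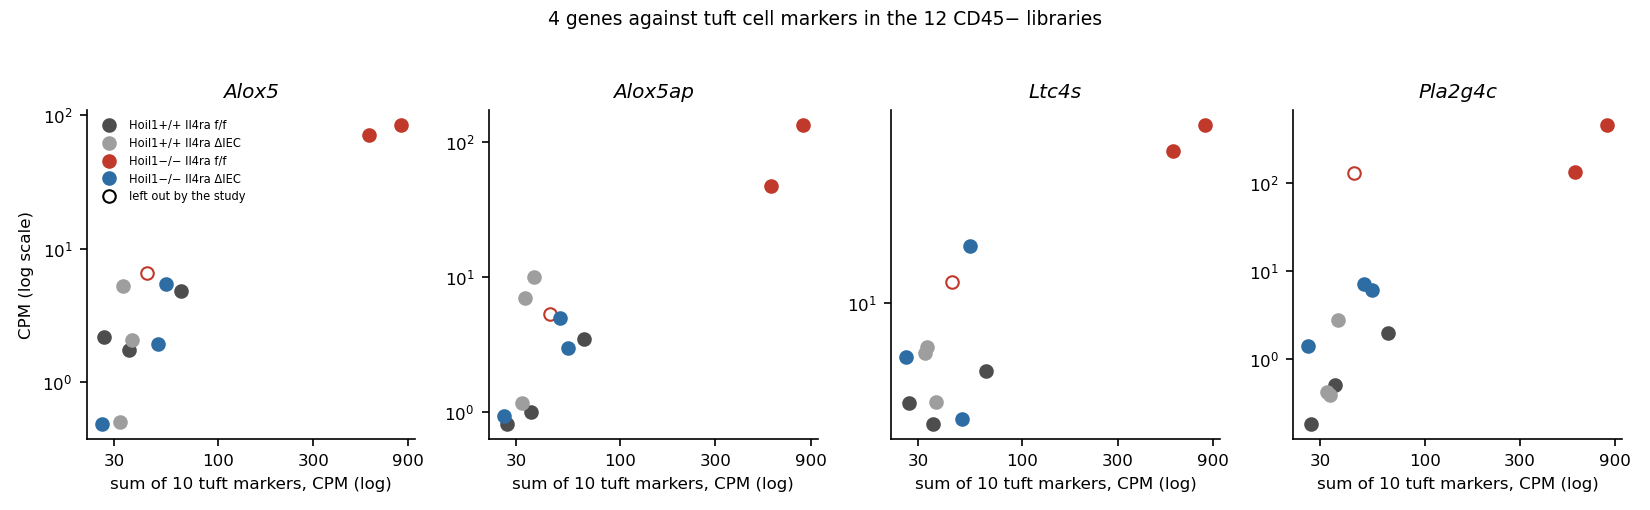
Level (CPM, log axis) of *Alox5*, *Alox5ap*, *Ltc4s* and *Pla2g4c* against the summed level of 10 tuft cell markers (CPM, log axis) in the 12 CD45− libraries, colored by genotype, with the library left out by the study as an open circle. Replicates 1 and 2 of *Hoil1−/− Il4ra f/f* lie at the upper right in each panel (571 and 822 CPM of markers), and the open circle is high for *Pla2g4c* (130 CPM) at a marker sum of 44.2 CPM.

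The third comparison asks whether these levels depended on *Il4ra* in IECs. In CD45− cells of *Hoil1−/− Il4ra ΔIEC* mice *Pla2g4c* was at 5.99, 1.41 and 7.06 CPM, *Alox5* at 5.48, 0.483 and 1.94 CPM, *Alox5ap* at 2.97, 0.930 and 4.99 CPM and *Ltc4s* at 18.5, 5.47 and 2.77 CPM. All 3 libraries were below replicates 1 and 2 of *Hoil1−/− Il4ra f/f* for each of the 4 genes, and below replicate 3 as well for *Alox5*, *Alox5ap* and *Pla2g4c*. The cell mix moved with these levels: epithelial markers summed to 1753, 805 and 5543 CPM in *Hoil1−/− Il4ra ΔIEC* libraries, endothelial markers to 1542 to 4885 CPM (755, 1276 and 2766 CPM for *Hoil1−/− Il4ra f/f*) and stromal markers to 2182 to 8463 CPM (399, 2297 and 6928 CPM). The part of this mix in the differences was not tested. The log2 differences, ΔIEC minus f/f, were -5.91 ± 1.11 (SE, adjusted p = 0.116) for *Pla2g4c*, -4.86 ± 1.04 (SE, adjusted p = 0.135) for *Alox5*, -4.94 ± 1.01 (SE, adjusted p = 0.127) for *Alox5ap* and -2.77 ± 0.66 (SE, adjusted p = 0.164) for *Ltc4s*, by edgeR's quasi-likelihood test. That test called none of the 9 genes (0.0425% of all genes passed), 6 of 9 had an unadjusted p under 0.05 (2904 of all genes did), and the likelihood ratio test and DESeq2 each called these 4, among 656 and 1247 genes. *Cysltr1* was at 54.4, 51.4 and 54.9 CPM in ΔIEC libraries, above all 3 f/f libraries, with a log2 difference of 1.83 ± 0.66 (SE, adjusted p = 0.227 by edgeR). *Pla2g4a* had one of -1.29 ± 0.56 (SE, adjusted p = 0.274 by edgeR).

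Among ΔIEC mice the *Hoil1* genotypes were closer. In CD45− cells of *Hoil1+/+ Il4ra ΔIEC* mice *Pla2g4c* was at 2.77, 0.384 and 0.417 CPM, which overlaps the *Hoil1−/− Il4ra ΔIEC* values, and the log2 difference was 2.11 ± 1.00 (SE, adjusted p = 0.628 by edgeR). *Ptgs1* was at 27.4, 18.3 and 71.5 CPM in *Hoil1+/+* and 77.3, 116 and 93.1 CPM in *Hoil1−/−* mice, without overlap, with a log2 difference of 1.29 ± 0.48 (SE, adjusted p = 0.603 by edgeR). *Ptgs1* was the 1 gene of 9 with an unadjusted p under 0.05 (1261 of all genes had one), and none passed (0.00608% of all genes did) by edgeR or by DESeq2.

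The interaction asks whether the *Hoil1* difference itself differed between ΔIEC and f/f mice. It was -6.14 ± 1.46 (SE, adjusted p = 0.121) for *Pla2g4c*, -6.66 ± 1.33 (SE, adjusted p = 0.115) for *Alox5ap*, -4.62 ± 1.34 (SE, adjusted p = 0.137) for *Alox5* and -3.29 ± 0.89 (SE, adjusted p = 0.129) for *Ltc4s* on the log2 scale, and 2.36 ± 0.85 (SE, adjusted p = 0.181) for *Cysltr1*, by edgeR's quasi-likelihood test. None of the 9 genes and 0% of all genes passed, while 5 of 9 and 3409 of all genes had an unadjusted p under 0.05 and the likelihood ratio test and DESeq2 each called 4 of 9, among 1223 and 1572 genes. Leaving out CD45− *Hoil1+/+ Il4ra ΔIEC* replicate 3, the deepest CD45− library, let *Alox5*, *Alox5ap*, *Pla2g4c*, *Ptgs1* and *Cysltr1* pass, with 1199 of all genes.

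In CD45+ cells none of the 9 genes passed in any of the 4 contrasts by edgeR's quasi-likelihood test, and neither did any other gene (0% of 17029 in each). *Rbck1* itself was thus missed, at 90.5 to 139 CPM in *Hoil1+/+ Il4ra f/f* and 5.38 to 10.4 CPM in *Hoil1−/− Il4ra f/f* libraries. The study, by its own test, called *Rbck1* and several other genes by *Hoil1* in CD45+ cells. A missed call in this fraction therefore does not show that a gene did not differ. Of the 9, 4 had an unadjusted p under 0.05 for *Hoil1* among f/f mice, 2 among ΔIEC mice, 3 for *Il4ra* among *Hoil1−/−* mice and 4 for the interaction, and of all 17029 genes 898, 1035, 1197 and 1193 had one. DESeq2 called 1 of 9 in the first (*Pla2g4c*), none in the second, 1 in the third (*Ptgs2*) and 1 in the fourth (*Ltc4s*), and the likelihood ratio test called *Pla2g4c* in the first. *Pla2g4c* passed the filter in CD45+ cells only through the libraries of the group in which it had counts. It is 1 of the 4 with an unadjusted p under 0.05 in the first contrast and 1 of the 3 in the third. There, as in the *Pla2g4c* calls, that group is set against libraries at 0, so its part in these counts and calls is given as a description.

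*Pla2g4c* had counts in CD45+ libraries of 1 genotype alone. It had 1053, 107 and 225 counts (42.1, 2.06 and 7.91 CPM) in libraries 1 to 3 of *Hoil1−/− Il4ra f/f* mice, the first of which the study left out, and no count in the other 9 libraries, where 3 counts would be 0.0378 to 0.186 CPM. The lowest *Hoil1−/− Il4ra f/f* library was at least 22.7-fold higher than the highest such limit, of 3 counts per library, among *Hoil1+/+ Il4ra f/f* libraries. CD45− libraries of the same genotype had the highest levels of the gene in that fraction. In the CD45+ *Hoil1−/− Il4ra f/f* libraries the epithelial marker sum was 164 to 335 CPM, against 99.8 to 344 CPM in *Hoil1+/+ Il4ra f/f* and 57.5 to 77.1 CPM in *Hoil1−/− Il4ra ΔIEC* libraries, and the tuft marker sum was 10.4 to 17.4 CPM against 8.36 to 14.4 CPM and 7.40 to 14.3 CPM. These marker sums overlapped between the *Hoil1* genotypes of f/f mice. *Pla2g4c* in CD45− cells of the same genotypes did not overlap (0.181 to 1.95 CPM in *Hoil1+/+* and 130 to 453 CPM in *Hoil1−/−*). The part of CD45− cells in the *Pla2g4c* counts of CD45+ libraries was not tested.

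*Ptgs2* was lowest in CD45+ cells of *Hoil1−/− Il4ra f/f* mice, at 28.9 (left out), 26.9 and 10.8 CPM. It was at 44.2, 38.9 and 167 CPM in *Hoil1+/+ Il4ra f/f*, at 62.3, 63.9 and 90.4 CPM in *Hoil1+/+ Il4ra ΔIEC* and at 97.6, 120 and, in the left-out library, 37.8 CPM in *Hoil1−/− Il4ra ΔIEC* mice. All 3 libraries were below every library of the other groups. The log2 difference between *Hoil1* genotypes was -2.15 ± 0.66 among f/f mice (SE, adjusted p = 0.836 by edgeR), and that of ΔIEC minus f/f among *Hoil1−/−* mice was 2.53 ± 0.70 (SE, adjusted p = 0.567 by edgeR), with an interaction of 2.71 ± 0.87 (SE, adjusted p = 0.694 by edgeR).

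The sign of the *Ltc4s* difference between *Hoil1* genotypes of f/f mice in CD45+ cells turned with the use of the left-out libraries. In CD45+ cells it was at 36.4, 18.3 and 37.4 CPM in *Hoil1+/+ Il4ra f/f* mice and, for *Hoil1−/− Il4ra f/f* mice, at 14.7 and 17.6 CPM in both libraries tested but at 105 CPM in the left-out one. The log2 difference was -0.94 ± 0.41 (SE, adjusted p = 0.836 by edgeR) over the 21 libraries and 0.55 with all 24. Among ΔIEC mice *Ltc4s* was at 14.4, 14.2 and 18.7 CPM in *Hoil1+/+* and at 23.8, 54.9 and 48.1 CPM (the last left out) in *Hoil1−/−* mice, without overlap, with a log2 difference of 1.30 ± 0.39 (SE, adjusted p = 0.706 by edgeR). *Alox5* was at 14.8, 9.07 and 27.5 CPM against 56.4, 37.4 and 40.7 CPM in the same groups, a log2 difference of 1.44 ± 0.50 (SE, adjusted p = 0.775 by edgeR). The difference of *Ltc4s* between ΔIEC and f/f among *Hoil1−/−* mice was 1.29 ± 0.44 (SE, adjusted p = 0.611 by edgeR), and -0.09 with all 24. The interactions were 2.24 ± 0.57 (SE, adjusted p = 0.591) for *Ltc4s*, 1.98 ± 0.72 (SE, adjusted p = 0.694) for *Alox5* and 1.00 ± 0.42 (SE, adjusted p = 0.701) for *Pla2g4a* by edgeR.

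*Hpgds*, *Ptgs1*, *Alox5ap*, *Cysltr1* and *Pla2g4a* passed in no contrast in CD45+ cells. *Alox5ap* ranged from 22.5 to 136 CPM and *Ptgs1* from 121 to 402 CPM. Among ΔIEC mice *Ptgs1* was at 121 to 191 CPM in *Hoil1+/+* and at 213 to 226 CPM in *Hoil1−/−* libraries, without overlap. Its log2 difference there was 0.35 ± 0.29 (SE, adjusted p = 0.823 by edgeR). *Hpgds* was between 23.98 and 57.6 CPM in 11 of the 12 libraries and at 10.3 CPM in the left-out *Hoil1−/− Il4ra ΔIEC* replicate 3. *Pla2g4a* was at 30.3, 20.6 and 33.4 CPM in *Hoil1+/+ Il4ra f/f* and, for *Hoil1−/− Il4ra f/f* mice, at 16.8 and 17.2 CPM in both libraries tested and 50.8 CPM in the left-out one, and the log2 difference was -0.74 ± 0.30 (SE, adjusted p = 0.836 by edgeR). *Cysltr1* reached its highest value, 83.3 CPM, in the left-out ΔIEC library and was between 17.7 and 53.8 CPM in the other 11.

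Markers of hematopoietic cells varied between the CD45+ groups, and their part in the values above was not tested. The summed mast cell markers ranged from 704 to 1629 CPM in *Hoil1+/+ Il4ra f/f*, 140 to 176 CPM in *Hoil1+/+ Il4ra ΔIEC*, 421 to 1275 CPM in *Hoil1−/− Il4ra f/f* and 222 to 1427 CPM in *Hoil1−/− Il4ra ΔIEC* libraries. The macrophage markers ranged from 5362 to 9917, 3121 to 5360, 4167 to 13389 and 5529 to 9431 CPM in the same order, and the neutrophil markers from 154 to 313, 35.0 to 280, 57.1 to 288 and 187 to 208 CPM. In that order the B and plasma cell markers ranged from 19526 to 47407, 12172 to 16395, 15379 to 33485 and 8783 to 39711 CPM. The T cell markers ranged from 443 to 2502, 448 to 2490, 785 to 1137 and 366 to 712 CPM. The summed ILC2 markers separated the *Hoil1* genotypes without overlap. They were at 10.1 to 15.6 CPM against 77.4 to 381 CPM among f/f mice and 21.8 to 31.6 CPM against 76.5 to 294 CPM among ΔIEC mice. The study reported *Nmur1*, *Klrg1*, *Il5* and *Il17rb* of this list as differing by *Hoil1* in these same CD45+ cells, so the separation was known in advance. The ranges of *Alox5*, *Ltc4s* and *Ptgs1* did not overlap between the *Hoil1* genotypes of ΔIEC mice, but none passed (adjusted p = 0.775, 0.706 and 0.823 by edgeR). The share of all genes so separated was not counted, so the separation is given as a description. The *Hoil1+/+ Il4ra ΔIEC* libraries, with the least mast cell marker RNA, also held the 2 lowest values of *Alox5* in CD45+ cells (9.07 and 14.8 CPM). Those 2 libraries also had the lowest macrophage (3121 and 4086 CPM) and neutrophil (35.0 and 40.9 CPM) marker sums. Replicate 3 of the group, with mast cell markers at 176 CPM, held *Alox5* at 27.5 CPM. That is above the 20.0 CPM of *Hoil1−/− Il4ra f/f* replicate 3, where mast cell markers were at 552 CPM. Replicate 1 of CD45+ *Hoil1−/− Il4ra f/f*, not used in the tests, with the highest values of *Ptgs1*, *Alox5*, *Pla2g4a*, *Hpgds* and *Ltc4s*, also had the highest macrophage marker sum (13389 CPM).

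Whether the *Hoil1* difference among f/f mice differed between the fractions was tested in 1 fit over all 21 libraries. *Ltc4s* passed, with a difference of differences (CD45− minus CD45+) of 5.03 ± 0.89 on the log2 scale (SE, adjusted p = 0.0402 by edgeR), and it was the 1 gene of 9 called against a background of 0.0959% of 18778 genes. *Alox5ap* (6.30 ± 1.34 SE, adjusted p = 0.103 by edgeR), *Alox5* (5.25 ± 1.28 SE, adjusted p = 0.195) and *Pla2g4a* (1.59 ± 0.68 SE, adjusted p = 0.460) did not pass. The call for *Ltc4s* was lost with all 24 libraries (3.09, adjusted p = 0.545, the top of a range from 1.05e-06 over the alternatives). It was also lost when any of 8 of the 21 libraries was left out, with differences of 4.84 to 5.30 and adjusted p of 0.0586 to 0.233. The 8 were CD45− *Hoil1+/+ Il4ra f/f* replicates 1, 2 and 3, CD45+ *Hoil1+/+ Il4ra f/f* replicates 1 and 3, CD45+ *Hoil1+/+ Il4ra ΔIEC* replicate 2 and CD45+ *Hoil1−/− Il4ra f/f* replicates 2 and 3.

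The rest of the pathway was followed with lists of 61 genes, the 9 included. Between the fractions, 1 of 9 other phospholipases A2 tested was higher in CD45+ cells and 6 were lower. The higher one was *Pla2g2d*, a secreted enzyme of lymphoid tissue (45.6 to 193 CPM in CD45+ and 0 to 4.83 CPM in CD45− libraries), and *Pla2g2a*, *Pla2g2e*, *Pla2g2f*, *Pla2g4f*, *Pla2g5* and *Pla2g10* were lower. Downstream of leukotriene A4, *Lta4h*, which makes leukotriene B4 and was singled out after its values were seen, did not pass (median 99.6 CPM in CD45+ and 85.5 CPM in CD45−, log2 difference 0.19 ± 0.14 SE, adjusted p = 0.296 by edgeR). *Dpep2* and *Ggt5*, which trim leukotriene C4 to its further forms, were higher in CD45+ cells with the exporter *Abcc1*, while *Dpep1*, *Ggt1* and *Mgst2* were lower. Of the receptors, *Cysltr2* and *Ltb4r1* were higher and *Ltb4r2* lower.

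In the prostanoid branch, *Tbxas1*, which encodes thromboxane synthase, was at 66.9 to 161 CPM in CD45+ and at most 0.743 CPM in CD45− libraries, and *Ptges3* was also higher. *Ptges2* and *Fam213b*, a prostaglandin F synthase gene, were lower. Of 6 transport and breakdown genes, 4 were lower in CD45+ cells and none higher: *Slco2a1*, the prostaglandin transporter (201 to 963 CPM in CD45− and 0 to 8.13 CPM in CD45+), *Ptgr1*, *Abcc4* and *Cbr1*. *Hpgd*, which inactivates prostaglandins, did not pass (median 43.5 against 25.4 CPM). Of 9 prostanoid receptors, *Ptger2* and *Ptger4* were higher and *Ptgfr* lower. Of 5 other lipoxygenases tested, *Alox15* was higher in CD45+ (2.35 to 120 CPM against at most 0.543 CPM) and *Alox12* lower.

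In the genotype contrasts no pathway gene outside the 9 passed in either fraction by edgeR's quasi-likelihood test. Among f/f mice in CD45− cells the 10 leukotriene synthesis genes had a median log2 difference of 1.83, with 8 of 10 above 0, beside a median of -0.17 over all genes tested. In CD45+ cells the same list had a median of -0.46, with 4 of 10 above 0, beside 0 over all genes. For the 9 prostanoid synthesis genes tested the medians were -0.03 and -0.36. These lists include the members themselves, and the leukotriene list holds *Alox5* (4.72 in CD45− cells), *Alox5ap* (5.62) and *Ltc4s* (4.11). The medians and counts are thus not separate from the values given above. The share of all genes above 0 was not counted.

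Genes whose levels followed each of the 9 most closely are given as a description, by Spearman's rho of log2(CPM + 0.5) over the 12 libraries of the fraction with the higher mean. For *Ptgs2* in CD45+ cells they were *Icam1* (0.986), *Ccrl2* (0.979) and *Klf10* (0.972). For *Alox5* they were *Serpinb8* (0.965), *Folr2* (0.951) and *Tlr8* (0.944), for *Alox5ap* *Cyp4f18*, *Msrb1* and *Skap2* (0.944 to 0.972), and for *Ltc4s* *Camk1*, *Tubb2a* and *Ifitm2* (0.965 to 0.986). For *Ptgs1* they were *Ftl1*, *Pepd* and *Plod3*, for *Pla2g4a* *Vsir*, *Ctsc* and *Asah1*, and for *Hpgds* *2010013B24Rik*, *Gm15889* and *Ms4a14* (0.923 to 0.986 over these). In CD45− cells *Pla2g4c* was closest to *Ndufb6* (0.895), *C1galt1* (0.888) and *Rgs13* (0.888), and *Cysltr1* to *Grsf1*, *Zfp697* and *Ptma* (0.930 to 0.944). Libraries of different depth and cell mix enter each rho.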

How the data were processed

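Per the labels and the study's methods, poly-A RNA of sorted ileal cells was sequenced from libraries made with a strand-selecting kit, reads were trimmed with cutadapt, aligned to mm10 with STAR and assigned to ENSEMBL genes with featureCounts. The strand setting of the counting and tool versions are not given in the sources used here. The authors deposited raw counts per gene for 24 libraries. IDs were matched to GENCODE M21 (38872 of 39056). Here edgeR 4.0.16 (R 4.3.3) fitted the 21 libraries of the study's list, with TMM scaling, filterByExpr (minimum count 10, minimum total 15), the quasi-likelihood test and Benjamini-Hochberg adjustment (threshold 0.05), in 1 fit per fraction and 1 over both fractions. The contrasts were *Hoil1* within f/f and within ΔIEC, *Il4ra* within *Hoil1−/−*, their interaction, the fraction, and the fraction difference of the *Hoil1* effect. The fraction fits treat libraries as independent, although by their labelled ages the fractions may share mice. The code was tested on simulated data. Alternatives were all 24 libraries, the likelihood ratio test, DESeq2 1.42.0, RLE scaling, no filter, removal of 391 immunoglobulin genes and leaving out each library. All 9 genes are reported, with listed pathway genes named when they passed or were among the 2 most abundant of a list, and the 3 genes of most similar pattern. The genes and lists were chosen with earlier results of these data known. Limits from 3 counts cover counting error only, and 16 PCR cycles without molecular identifiers add error they do not cover.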

Additional observations from a re-analysis of the deposited data

Results flagged for a closer look

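*Ltc4s*, which encodes leukotriene C4 synthase, was singled out because its *Hoil1* difference among f/f mice differed between the fractions by a test of that difference. The difference of differences, CD45− minus CD45+, was 5.03 on the log2 scale (SE 0.89, adjusted p = 0.0402 by edgeR's quasi-likelihood test). It was made of a log2 difference of 4.11 in CD45− cells and of -0.94 in CD45+ cells, neither of which passed on its own. With all 24 libraries it was 3.09 (adjusted p = 0.545 by edgeR), and the left-out CD45+ *Hoil1−/− Il4ra f/f* replicate 1 had the highest *Ltc4s* level of all libraries, 105 CPM.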

How the results depend on the processing

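Across 42 results for single genes, 777 of 831 alternative values kept the direction and the side of the threshold, 10 lost a call, 41 gained one and 3 changed sign. The sign changes were *Ltc4s* in CD45+ cells with all 24 libraries, for *Hoil1* within f/f (0.55) and *Il4ra* within *Hoil1−/−* (-0.0927), and *Cysltr1* between the fractions without CD45− *Hoil1+/+ Il4ra ΔIEC* replicate 3 (0.048, in a range of -0.3185 to 0.048 with 1 library left out). RLE scaling moved no count of calls by over 1.5 times. The cause of these shifts was not tested.

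In CD45− cells, for *Hoil1* within f/f, *Hoil1* within ΔIEC, *Il4ra* within *Hoil1−/−* and the interaction in that order, the main test called 6, 1, 7 and 0 genes, the likelihood ratio test 350, 62, 656 and 1223, and DESeq2 652, 140, 1247 and 1572. Of the 9 genes both called 4, 0, 4 and 4. In CD45+ cells the main test called 0 in each, the likelihood ratio test 66, 51, 45 and 68, and DESeq2 100, 184, 226 and 191. Of the 9 genes the likelihood ratio test called 1 (*Pla2g4c*, against libraries at 0), 0, 0 and 0, and DESeq2 called 1 (again *Pla2g4c*), 0, 1 and 1. For the fraction difference they called 350 and 471 genes against 18, and 3 of the 9 each. For the fraction effect DESeq2 called 7 of 8, with no adjusted p for *Hpgds*. Without the filter, *Hoil1* within f/f gave 11 genes and 1 of the 9 in CD45− cells and 3 genes in CD45+ cells, and the CD45− interaction gave 1 gene. Without immunoglobulin genes, *Hoil1* within f/f gave 11 genes and 1 of the 9 in CD45− and 2 genes in CD45+ cells. With all 24 libraries, *Hoil1* within f/f, within ΔIEC and *Il4ra* gave 0 genes each in CD45− cells, *Hoil1* within f/f and ΔIEC gave 1 each in CD45+ cells, and the fraction difference gave 2 genes and 0 of the 9.

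Leaving out 1 library gave, in CD45− cells, 0 to 474 genes and 0 to 2 of the 9 for *Hoil1* within f/f, 0 to 2 genes within ΔIEC, 0 to 576 genes for *Il4ra* and 0 to 1199 genes and 0 to 5 of the 9 for the interaction. It gave 0 to 7 genes for *Hoil1* within f/f in CD45+ cells, 2 to 394 genes and 0 to 2 of the 9 for the fraction difference, and 7 to 8 of the 9 for the fraction effect. No paired analysis was possible because replicate numbers were given in accession order. With 2 *Hoil1−/− Il4ra f/f* libraries per fraction in the tests, a missed threshold shows no equality, and CD45− *Hoil1−/−* libraries of the lowest depth give few counts for *Ptgs2* and *Hpgds*.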
